A study of Homo sapiens with 12 samples.

Results

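The genes described here are 41 genes of the translocon, signal recognition and the early secretory pathway, chosen by symbol from a list of subunits and receptors, out of 59276 features in the deposited table. All 41 reached 1 TPM in 3 or more libraries and were tested among 11939 features, 40 of them in all 12 libraries and KDELR3 only in the 3 day 2 libraries and 1 untreated library. Total RNA was sequenced from 12 libraries of MM1S, an established human multiple myeloma cell line, with 3 libraries in each of 4 groups. The groups were untreated cells at day 0 and cells kept in 10 μM NGI-1, an inhibitor of the oligosaccharyltransferase that attaches N-glycans to proteins in the endoplasmic reticulum (ER), for 2, 3 and 5 days. The treatment label of the day 0 cells also reads NGI-1, and these cells are called untreated here because the study does so. The 3 treated groups share the 3 untreated libraries, no untreated cells of a later day were analysed here, and no source says that the 3 libraries of a group were separate cultures, so p-values measure the spread between these libraries.

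The values are TPM, a share of transcripts corrected for length, deposited as the log2 of TPM plus 1. TPM keeps no read count, so the depth behind a single value is unknown beyond the more than 60 M read pairs per library stated in the labels. A log2 change below is the difference between group means on that scale, with its standard error (SE) from limma, and a gene was called lower or higher at a Benjamini-Hochberg adjusted p under 0.05 and a log2 change over 0.5 in size. TPM sums to the same total in every library, so a value moves when other transcripts take more or less of the total. The median log2 change of all 11939 features was -0.18 at day 2, -0.73 at day 3 and -0.99 at day 5. A second scale, called rescaling, therefore multiplied each library by 1 factor, chosen so that its median difference from the average library was 0 in the 5433 features whose mean TPM reached 10. Rose, fell and called refer below to the deposited scale unless rescaling is named. All 9 plasma cell markers checked were detected in every library, with a summed level of 12000 to 14140 TPM in untreated, 19040 to 22240 at day 2, 25500 to 28390 at day 3 and 19920 to 21180 at day 5. JCHAIN made up most of that sum, and the other 8 markers summed to 3265 to 3449 TPM in untreated and 3002 to 3337 at day 5. Among them the mean TPM went from 1547 in untreated to 366 at day 5 for XBP1, from 495.5 to 144 for SDC1 and from 192 to 92.96 for IRF4, while TNFRSF17 went from 577 to 2087. Of 18 markers of other cell types, 13 stayed under 1 TPM in every library, 5 of them listed at 0 throughout, and the sum ranged from 34.3 to 38.4 TPM in untreated, 38.7 to 40.4 at day 2, 21.3 to 29.8 at day 3 and 17.1 to 27.1 at day 5. In bulk RNA, fewer cells and less RNA of a gene per cell cannot be told apart.

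As background, a plasma cell secretes large amounts of antibody. The signal recognition particle binds the signal sequence of a growing protein and brings its ribosome to the SRP receptor on the ER. The chain then passes through the Sec61 channel, helped by the TRAP and TRAM proteins and by Sec62 and Sec63, and signal peptidase cuts off the signal sequence. Folded cargo leaves the ER in vesicles coated with COPII, while p24 and KDEL receptors sort cargo and bring escaped ER proteins back from the Golgi. The signal recognition particle also holds 7SL RNA.

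At day 2 only 2 of the 41 genes were called, with SAR1A lower and SEC11C higher. At day 3, 28 genes fell and 2 rose (SEC62 and SEC11C), and at day 5, 32 fell and 1 rose (SEC61G), where rescaling turned 15 of the 41 signs. Among all features tested, 23.2% were called lower on day 2, 61.5% on day 3 and 69.8% on day 5, and 8.04%, 7.59% and 7.73% were called higher. The members thus made up 2.44%, 68.3% and 78% called lower on the 3 days. The median change of the 41 genes was -0.0016 at day 2, -0.77 at day 3 and -1.28 at day 5. Of the 41, 32 lay above the median of all features at day 2, 18 at day 3 and 14 at day 5. After rescaling, 0 of the 41 genes were called lower on day 2, 11 on day 3 and 14 on day 5, and 7, 12 and 12 were called higher. At an unadjusted p under 0.05, 2 genes were lower at day 2 on that scale. The share of all features on that scale was 11.4%, 24.2% and 26.9% lower and 12.9%, 23.9% and 27.5% higher, in the order of the days. On either scale the list split into genes on both sides of the median. On the deposited scale 31.7%, 80.5% and 90.2% of the 41 genes lay below all untreated libraries on the 3 days. The share of all features was 44.1%, 70.5% and 75.2%. Above all untreated libraries lay 29.3%, 9.76% and 7.32% of the 41 genes, against 16.9%, 11.1% and 10% of all features.

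**Figure D1:**
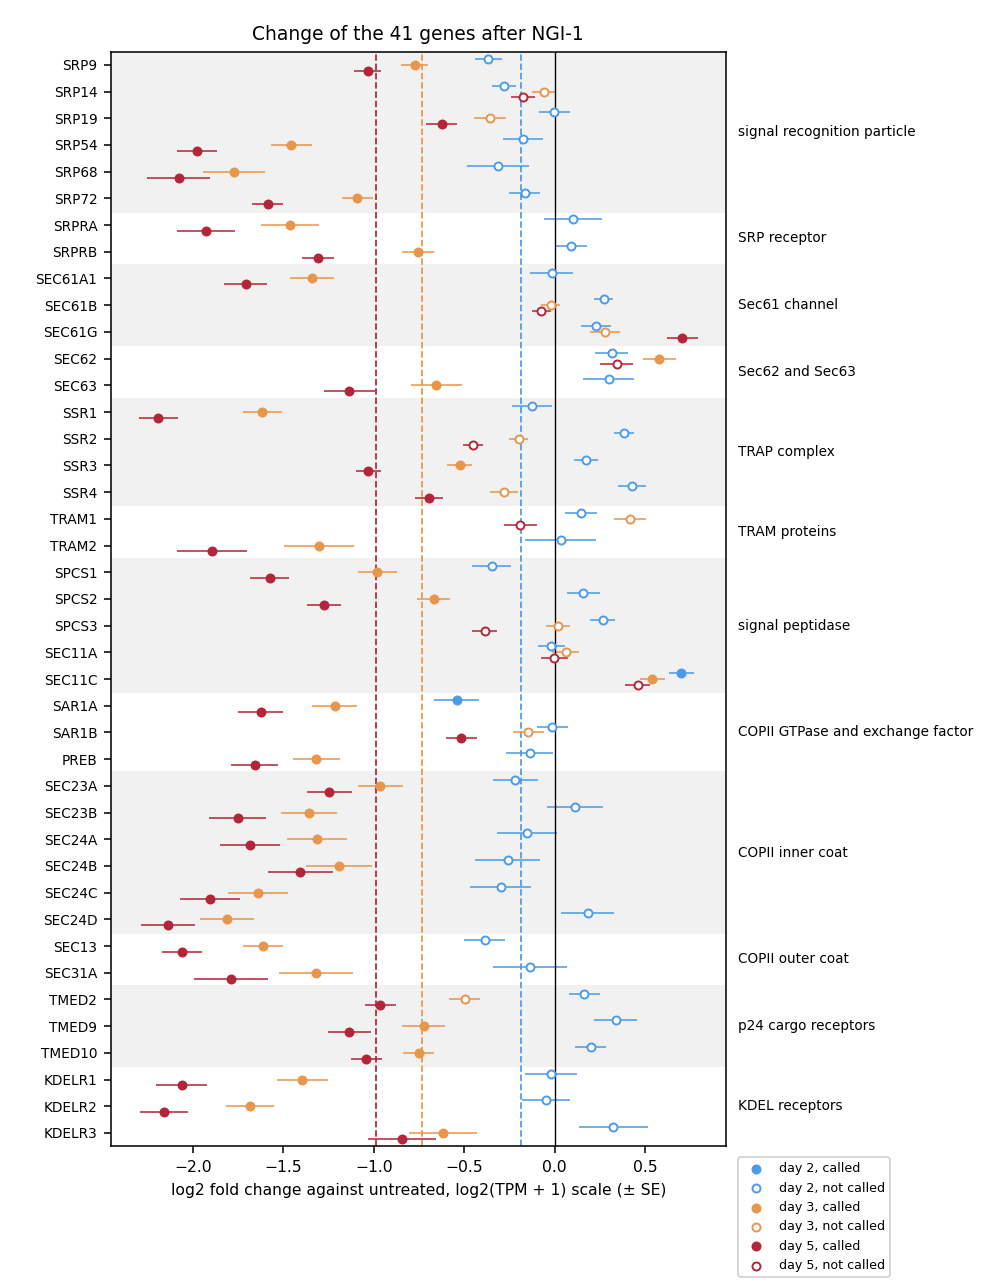
Log2 fold change of each of the 41 genes against untreated on the log2(TPM + 1) scale (x axis), by role (y axis), at day 2, 3 and 5. Points are differences of group means (n = 3 each), bars are ± SE from limma, filled points were called, and dashed lines mark the median change of all 11939 features on each day, at -0.18, -0.73 and -0.99. At day 5, SSR1, KDELR2, SEC24D, SRP68, KDELR1 and SEC13 lie at or below -2.06, and SEC61G lies highest at 0.71. Rescaling the libraries turned the sign of 15 genes at day 5.

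RefSeq promoter windows, running from 250 bases before to 50 bases after a gene start, were found for 35 of the 41 genes. TRAM1, KDELR2, TMED9, SEC24D, SRPRA and SPCS1 had no entry. The motif TGACGTG, the core of sites bound by the ER stress factors XBP1 and ATF6 as background, was searched on both strands, where the opposite strand reads CACGTCA, and was chosen after the values were seen. It stood in the windows of 9 of the 35 genes (25.7%), against 8 of 61 genes (13.1%) of the list of neighbouring pathway steps described further on, 3.56% of the 8941 tested genes with a window and 2.4% of all 27305 genes. A second motif, CCACGTC, overlaps the first by 6 letters when read on the opposite strand, and 15 of 35 genes (42.9%) held either motif, against 23% of the 61 genes and 7.96% of tested genes. The stretch around the first motif is shown for the 9 genes because they come from 7 of the role groups and moved in both directions. Each runs 5′ to 3′ on the strand of the gene, with the motif in capitals, and ends at or before the start site, except for SEC61A1 and SEC23A, where the motif spans the start. The motif begins 143 bases before the start in SEC13, 111 in SRP19 and 40 in SSR3. The stretches lie in GRCh38.p14 at chr3:128052428-128052450 (SEC61A1, plus strand), chr3:169966771-169966806 (SEC62, plus), chr3:156554139-156554185 (SSR3, minus), chrX:153794520-153794566 (SSR4, plus), chr5:112861156-112861202 (SRP19, plus), chr3:10321229-10321275 (SEC13, minus), chr14:39103225-39103247 (SEC23A, minus), chr5:134648586-134648632 (SEC24A, plus) and chr22:38468031-38468077 (KDELR3, plus). A gene with several start sites has several windows (1.31 per gene on average for the 35 genes and 1.45 for the tested genes), and it was counted when any of them held the motif.
SEC61A1: gctagcacTGACGTGtctctcgg
SEC62: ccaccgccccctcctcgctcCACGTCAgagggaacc
SSR3: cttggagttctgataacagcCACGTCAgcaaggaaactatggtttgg
SSR4: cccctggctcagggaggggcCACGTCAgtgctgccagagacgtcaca
SRP19: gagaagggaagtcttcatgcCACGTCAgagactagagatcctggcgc
SEC13: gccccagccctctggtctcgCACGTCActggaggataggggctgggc
SEC23A: cctcctctTGACGTGgcagaggc
SEC24A: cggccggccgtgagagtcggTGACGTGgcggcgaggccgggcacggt
KDELR3: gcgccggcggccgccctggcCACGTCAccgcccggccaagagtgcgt

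The 9 genes with this motif had a median change of -1.03 at day 5, from -2.06 (SEC13) to 0.34 (SEC62). The 26 genes with a window that lacks these letters had a median of -1.29 and ranged from -2.19 to 0.71. The ranges overlap almost entirely, and a match describes letters in a window, not binding.

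Of the 6 protein subunits of the signal recognition particle, 0 were called at day 2, 4 fell at day 3 and 5 fell at day 5, and SRP9 and SRP19 were above 0 after rescaling at both later days. Among all features, 61.5% were called lower at day 3 and 69.8% at day 5. The subunits did not move together. SRP14, which with SRP9 forms the Alu-domain pair that slows elongation, measured 261, 263 and 263 TPM in the untreated libraries, 219, 204 and 224 after 2 days, 252, 248 and 256 after 3 days, then 241, 239 and 218 after 5 days. All 9 treated libraries lay below the untreated ones, those of day 3 by the least. The change at day 5 was -0.17 (SE 0.066, adjusted p = 0.025), not called, and turned to 1.05 after rescaling. SRP9 measured 247, 262 and 261 TPM in the untreated libraries, 214, 191 and 192 after 2 days, 152, 154 and 144 after 3 days, then 116, 129 and 129.5 after 5 days. Every treated library lay below the untreated ones, and the day 5 libraries lay lowest. Its change at day 5 was -1.03 (SE 0.074, adjusted p = 1.64e-08), and 0.19 after rescaling. A processed pseudogene of SRP9 reached up to 17.1% of the SRP9 value in a library, so its share of the reads is uncertain.

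SRP68, which with SRP72 forms a large heterodimer on the S domain, measured 55.4, 54.5 and 51.7 TPM in the untreated libraries, 39.4, 45.8 and 44.4 after 2 days, 13.8, 18.99 and 12.97 after 3 days, then 9.55, 10.9 and 16.5 after 5 days. The treated groups at day 3 and 5 lay under all untreated and day 2 libraries, and the third day 5 library was the highest of its group. At day 5 its change was -2.08 (SE 0.17, adjusted p = 6.67e-08) and -0.91 after rescaling. SRP72 fell less at day 5, by 1.59 (SE 0.087, adjusted p = 1.18e-09), and lay at -0.38 after rescaling. SRP54, the GTPase that binds the signal sequence, fell by 1.98 (SE 0.11, adjusted p = 1.60e-09) and lay at -0.81 after rescaling. SRP19, which helps SRP54 onto the RNA, fell by 0.63 (SE 0.086, adjusted p = 1.08e-05) and lay at 0.59 after rescaling, where it was called higher.

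Both subunits of the SRP receptor fell at day 3 and day 5, as did 61.5% and 69.8% of all features, and neither was called at day 2. SRPRA, the GTPase subunit that meets the particle, measured 199, 189 and 189 TPM in the untreated libraries, 203, 225 and 193 after 2 days, 62.3, 85.2 and 62.2 after 3 days, then 41.8, 44.2 and 67.1 after 5 days. Day 2 lay in or above the untreated range, and day 3 and day 5 lay far below with no overlap. Day 5 gave a change of -1.93 (SE 0.16, adjusted p = 6.53e-08) and -0.72 after rescaling. SRPRB, the subunit that anchors the receptor in the membrane, measured 169.6, 180.4 and 172 TPM in the untreated libraries, 185, 203 and 168 after 2 days, 96.9, 112 and 99.1 after 3 days, then 65.8, 72.5 and 70.6 after 5 days. Its 3 day 5 libraries lay closer together than those of SRPRA. The change at day 5 was -1.31 (SE 0.088, adjusted p = 8.44e-09) and -0.09 after rescaling, where it was no longer called.

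The 3 subunits of the Sec61 channel went apart. SEC61A1 forms the pore, and SEC61B and SEC61G are small tail-anchored subunits beside it. SEC61A1 measured 232, 228 and 226 TPM in the untreated libraries, 219, 237 and 223 after 2 days, 82.5, 107 and 81.04 after 3 days, then 63.1, 63.3 and 83.1 after 5 days. Day 2 overlapped the untreated libraries, and the fall came between day 2 and day 3. Its change at day 5 was -1.71 (SE 0.12, adjusted p = 1.26e-08) and -0.49 after rescaling, just under the size needed for a call on that scale. SEC61B measured 643, 611 and 656 TPM in the untreated libraries, 758, 762 and 782 after 2 days, 630.4, 623 and 625 after 3 days, then 609, 601 and 604 after 5 days. It peaked at day 2 and then lay just below the untreated libraries at day 5, at -0.07 (SE 0.054, adjusted p = 0.22) and 1.15 after rescaling. SEC61G measured 1370.5, 1490.1 and 1529 TPM in the untreated libraries, 1888, 1491 and 1785 after 2 days, 1813, 1689 and 1820.4 after 3 days, then 2314, 2284 and 2569 after 5 days. It had the highest TPM of the 41 genes in untreated and in day 5 cells and was the only one called higher at day 5 on the deposited scale (12 were after rescaling), with a change of 0.71 (SE 0.085, adjusted p = 2.85e-06) and 1.93 after rescaling. The summed TPM of the 3 genes went from 2329 ± 83.3 (SD, n = 3) in untreated to 3063 ± 168 (SD, n = 3) at day 5, and most of this sum is SEC61G.

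SEC62 and SEC63 assist the import of some proteins, the first also as an ER-phagy receptor and the second as a J-domain partner of BiP. SEC62 measured 103, 113 and 110.3 TPM in the untreated libraries, 143, 129 and 135 after 2 days, 184, 144 and 163 after 3 days, then 131, 140.3 and 144 after 5 days. All 9 treated libraries lay above the untreated ones, with the highest value in the first day 3 library. Its change at day 3 was 0.58 (SE 0.091, adjusted p = 5.33e-05), and without that library it fell to 0.49 and was not called. At day 5 it was 0.34 (SE 0.091, adjusted p = 0.00309) and 1.56 after rescaling. SEC63 measured 63.96, 75.8 and 64.5 TPM in the untreated libraries, 88.5, 77.8 and 85.2 after 2 days, 42.1, 47.8 and 38.9 after 3 days, then 24.8, 28.8 and 39.01 after 5 days. It lay above the untreated libraries at day 2 and below them from day 3. The change was 0.30 (SE 0.14, adjusted p = 0.102) at day 2 and -1.14 (SE 0.14, adjusted p = 4.00e-06) at day 5, and 0.06 after rescaling at day 5.

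The 4 TRAP subunits, which help chains with weak signal sequences into the channel, were not called at day 2, when SSR2, SSR3 and SSR4 lay above all untreated libraries. Of all features, 16.9% lay above all untreated libraries at day 2 and 44.1% below. At day 5, 3 of the 4 fell, against 69.8% of all features, and of these SSR3 and SSR4 lay above 0 after rescaling. SSR1 measured 379, 399 and 378 TPM in the untreated libraries, 367, 338 and 356 after 2 days, 121, 143 and 113 after 3 days, then 75.6, 77.4 and 99.8 after 5 days. It had the largest fall of the 41 genes at day 5, at -2.19 (SE 0.11, adjusted p = 4.50e-10) and -0.97 after rescaling. SSR2 measured 1069, 1021 and 1038 TPM in the untreated libraries, 1333, 1391 and 1355 after 2 days, 926, 885 and 911 after 3 days, then 776, 776 and 732 after 5 days. It lay above the untreated range at day 2, by less than the size of a call, and below it from day 3. At day 5 its change was -0.45 (SE 0.054, adjusted p = 2.79e-06), not called, and 0.77 after rescaling. SSR3 and SSR4 fell by 1.03 and 0.69 on the log2 scale at day 5 and lay at 0.19 and 0.53 after rescaling. SSR3 was also called lower at day 3, at -0.53, and without the first day 3 library it lay at -0.46 and was not called.

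TRAM1 and TRAM2 are related membrane proteins beside the channel. TRAM1 measured 729, 879.9 and 783 TPM in the untreated libraries, 941, 782 and 926 after 2 days, 1125, 1039 and 1021 after 3 days, then 646, 726 and 723 after 5 days. It was highest at day 3, at 0.41 (SE 0.090, adjusted p = 0.000753), short of a call, and lay at -0.19 (SE 0.090, adjusted p = 0.0625) at day 5 and 1.04 after rescaling. TRAM2 measured 70.4, 69.6 and 63.8 TPM in the untreated libraries, 67.5, 73.6 and 67.5 after 2 days, 21.3, 36.95 and 24.7 after 3 days, then 13.9, 15.8 and 24.4 after 5 days. Its fall came after day 2, and the second day 3 library and the third day 5 library lay highest in their groups. These libraries also lay highest in the median of the features used for rescaling. Day 5 gave a change of -1.90 (SE 0.20, adjusted p = 6.13e-07) and -0.71 after rescaling.

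Signal peptidase has 2 alternative catalytic subunits, SEC11A and SEC11C, and the accessory subunits SPCS1, SPCS2 and SPCS3. SEC11C measured 827, 889.6 and 905 TPM in the untreated libraries, 1515, 1317 and 1429 after 2 days, 1315, 1187 and 1311 after 3 days, then 1234, 1157 and 1212 after 5 days. All 9 treated libraries exceeded the 3 untreated ones. It was called higher at day 2, at 0.70 (SE 0.069, adjusted p = 3.54e-06), and at day 3, at 0.54, while at day 5 it lay at 0.46 (SE 0.069, adjusted p = 2.65e-05) and 1.68 after rescaling. SEC11A measured 161, 176 and 172 TPM in the untreated libraries, 179, 153 and 169.9 after 2 days, 180.3, 171 and 179 after 3 days, then 174, 165 and 168 after 5 days. Its groups overlapped throughout, with a change of -0.0021 (SE 0.075, adjusted p = 0.98) at day 5 and 1.22 after rescaling. SPCS1 measured 397, 415 and 419.7 TPM in the untreated libraries, 339, 301 and 328 after 2 days, 217, 222 and 185 after 3 days, then 114, 148 and 153 after 5 days. The day 5 libraries lay lowest of all groups, and the change was -1.58 (SE 0.11, adjusted p = 1.05e-08) and -0.36 after rescaling. SPCS2 fell by 1.28 (SE 0.093, adjusted p = 1.85e-08) at day 5 and lay at -0.05 after rescaling, with pseudogenes that reached up to 11.98% of its value in a library. SPCS3 was at -0.39 at day 5, not called, and at 0.83 after rescaling.

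**Figure D2:**
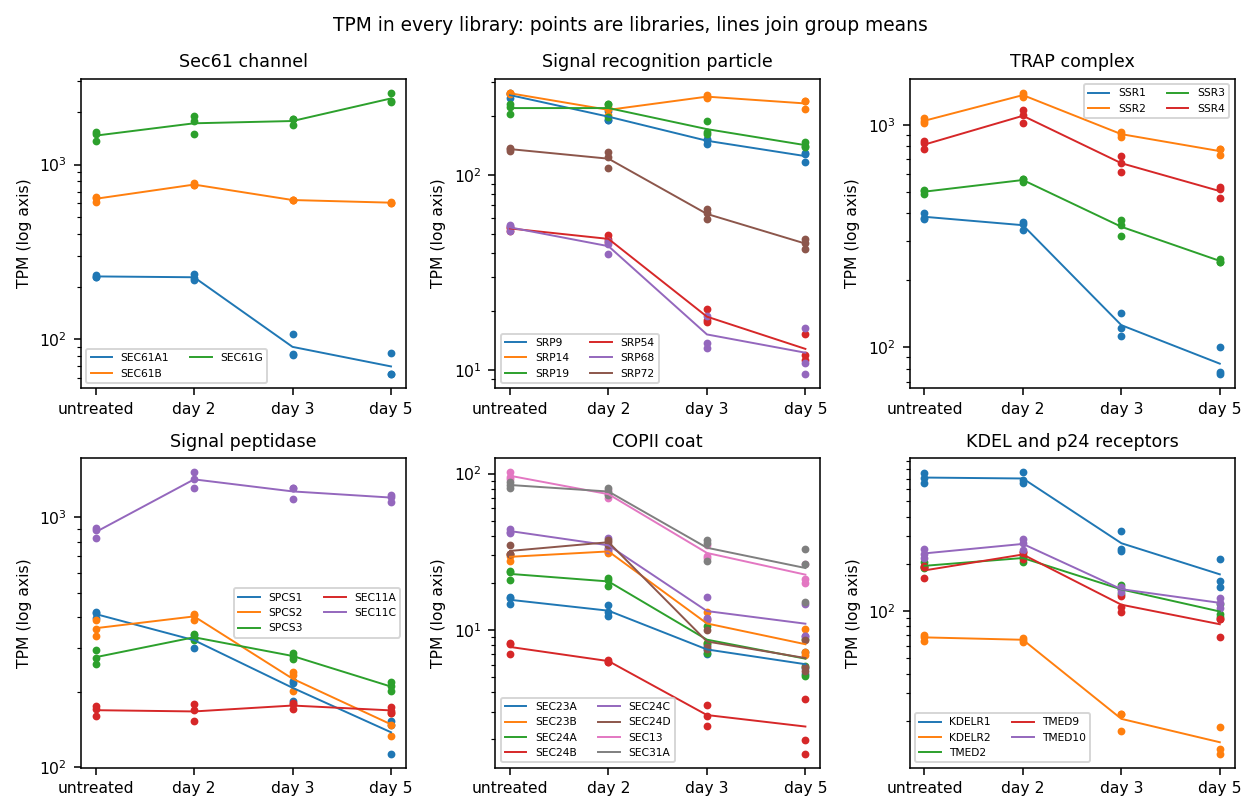
TPM (y axis, log scale) in every library for 31 of the 41 genes in 6 panels by role, over untreated, day 2, day 3 and day 5 (x axis). Each point is 1 library and lines join the means of the 3 libraries of a group. In the Sec61 panel the lines spread out with time. SEC61G went from 1370 to 1529 TPM in untreated to 2284 to 2569 TPM at day 5, and SEC61A1 from 226 to 232 TPM to 63.1 to 83.1 TPM. The COPII coat lines did not spread, with means from 7.78 (SEC24B) to 96.8 TPM (SEC13) in untreated and from 2.41 (SEC24B) to 24.9 TPM (SEC31A) at day 5.

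COPII assembly starts when PREB (SEC12), an exchange factor in the ER membrane, loads the GTPases SAR1A or SAR1B. SAR1A measured 19.2, 22.8 and 21.8 TPM in the untreated libraries, 13.9, 14.5 and 14.4 after 2 days, 7.67, 9.83 and 8.34 after 3 days, then 5.83, 5.56 and 7.32 after 5 days. It was the only gene of the 41 called lower at day 2, at -0.54 (SE 0.12, adjusted p = 0.00319). Without the second untreated library the day 2 change was -0.49 and was not called, and after rescaling it was -0.32. At day 5 SAR1A was at -1.63 (SE 0.12, adjusted p = 3.10e-08) and -0.51 after rescaling. SAR1B measured 100.1, 116 and 106 TPM in the untreated libraries, 106, 104 and 109 after 2 days, 97.7, 88.5 and 105 after 3 days, then 77.9, 70.7 and 75.3 after 5 days. Day 2 overlapped the untreated libraries and day 5 lay below them. Its change at day 5 was -0.52 (SE 0.085, adjusted p = 5.96e-05) and 0.70 after rescaling, and the call at day 5 was lost without the second untreated library (-0.46) or the second day 5 library (-0.48). PREB measured 69.6, 67.97 and 77.97 TPM in the untreated libraries, 67.9, 65.02 and 62.4 after 2 days, 28.6, 31.9 and 24.5 after 3 days, then 18.8, 21.03 and 27.05 after 5 days. It was at -1.66 (SE 0.13, adjusted p = 3.63e-08) and -0.47 after rescaling at day 5.

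All 6 inner coat genes fell at day 3 and day 5, against 61.5% and 69.8% of all features, and 0 of 6 were called at day 2. SEC23A and SEC23B stimulate GTP hydrolysis by SAR1, and SEC24A, SEC24B, SEC24C and SEC24D bind cargo. Their changes at day 5 ran from -2.14 (SEC24D) to -1.25 (SEC23A). After rescaling 4 of 6 were still called lower at day 5, against 26.9% of all features, all but SEC23A (-0.14) and SEC24B (-0.44). SEC24D measured 30.6, 34.7 and 30.7 TPM in the untreated libraries, 37.7, 36.7 and 34.7 after 2 days, 7.56, 10.02 and 7.73 after 3 days, then 5.46, 5.78 and 8.58 after 5 days. The day 2 libraries lay above the untreated ones, the lowest of them by little, and the later groups far below. The change was 0.18 (SE 0.15, adjusted p = 0.34) at day 2 and -2.14 (SE 0.15, adjusted p = 1.18e-08) and -1.01 after rescaling at day 5. SEC23A measured 16.2, 14.6 and 15.9 TPM in the untreated libraries, 14.5, 12.98 and 12.3 after 2 days, 7.02, 8.07 and 7.41 after 3 days, then 5.68, 5.22 and 7.21 after 5 days. It fell least of the 6, at -1.25 (SE 0.12, adjusted p = 3.93e-07). The others lay at -1.75 (SEC23B), -1.69 (SEC24A), -1.41 (SEC24B) and -1.91 (SEC24C). The summed TPM of the 6 genes was 150.4 ± 4.41 (SD, n = 3) in untreated and 40.7 ± 10.7 (SD, n = 3) at day 5.

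The outer coat is a cage of SEC13 and SEC31A. SEC13 measured 102, 92.97 and 95.6 TPM in the untreated libraries, 73.7, 78.4 and 69.4 after 2 days, 29.9, 34.7 and 28.7 after 3 days, then 19.9, 21.2 and 26.6 after 5 days. Every treated library lay below the untreated ones, and the change at day 5 was -2.06 (SE 0.11, adjusted p = 1.06e-09) and -0.87 after rescaling. SEC31A measured 84.01, 88.5 and 80.99 TPM in the untreated libraries, 76.1, 73.00 and 81.2 after 2 days, 27.4, 35.8 and 37.3 after 3 days, then 15.1, 26.6 and 32.96 after 5 days. Its day 5 libraries spread more than for any other of the 41 genes (SD 0.55 on the log2 scale, n = 3). The change at day 5 was -1.79 (SE 0.20, adjusted p = 1.70e-06) and -0.59 after rescaling.

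The 3 p24 cargo receptors lay above the untreated mean at day 2, at 0.16 (TMED2), 0.34 (TMED9) and 0.20 (TMED10), with no call. All 3 fell at day 5 on the deposited scale, against 69.8% of all features, and rescaling turned each above 0. TMED2 measured 188, 205 and 189.9 TPM in the untreated libraries, 228, 205 and 221 after 2 days, 146, 138 and 129 after 3 days, then 91.3, 96.2 and 111 after 5 days. It was just short of a call at day 3 (-0.50), and was called without the first untreated (-0.52), the third untreated (-0.51) or the first day 3 library (-0.54). At day 5 its change was -0.96 (SE 0.086, adjusted p = 1.49e-07) and 0.25 after rescaling. TMED9 measured 193, 163 and 190.2 TPM in the untreated libraries, 237, 237 and 214 after 2 days, 107, 124 and 98.4 after 3 days, then 68.4, 89.5 and 89.5 after 5 days. The day 2 libraries lay above all untreated ones and the later groups below. Day 5 gave a change of -1.14 (SE 0.12, adjusted p = 6.50e-07) and 0.08 after rescaling. TMED10 was at -1.04 at day 5 and 0.18 after rescaling, so none of the 3 was called lower on that scale.

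The 3 KDEL receptors, which return chaperones with a KDEL tail to the ER, fell at day 3 and day 5, KDELR3 on the deposited scale only. On that scale 61.5% and 69.8% of all features were called lower on these days. KDELR2 measured 64.4, 68.7 and 70.9 TPM in the untreated libraries, 67.5, 63.7 and 65.8 after 2 days, 22.2, 22.2 and 17.3 after 3 days, then 12.4, 13.3 and 18.1 after 5 days. Day 2 overlapped the untreated libraries. The change at day 5 was -2.16 (SE 0.13, adjusted p = 3.60e-09) and -0.98 after rescaling. KDELR1 had the highest TPM of the 3 and went from 759.9, 659 and 710.2 TPM in untreated to 143, 156 and 216 TPM at day 5, a change of -2.06 (SE 0.14, adjusted p = 1.10e-08) and -0.84 after rescaling. KDELR3 measured 0.716, 0.938 and 1.87 TPM in the untreated libraries, 1.25, 1.75 and 2.03 after 2 days, 0.32, 0.577 and 0.268 after 3 days, then 0.127, 0.0863 and 0.345 after 5 days. At about 1 TPM or less in most libraries it was the lowest of the 41 genes, and a change on the log2(TPM + 1) scale understates its fold. The change was -0.62 (SE 0.19, adjusted p = 0.00843) at day 3 and -0.85 (SE 0.19, adjusted p = 0.000856) at day 5. After rescaling it was -0.27 (adjusted p = 0.191) and -0.47 (adjusted p = 0.0276), neither of them called. KDELR3 was tested because of its day 2 libraries and the third untreated library, the 4 that reached 1 TPM, and that untreated library lay well above the other two. Without it the day 3 change was -0.40 and was not called, while the day 2 change was 0.54 and was called.

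Most of the movement fell between day 2 and day 3, where the median change of the 41 genes was -0.93, against -0.57 for all features (-0.30 and -0.07 after rescaling), while from day 3 to day 5 it was -0.40 against -0.25 (-0.06 and 0.02). In that step 30 genes fell and 0 rose, against 55.5% lower and 3.22% higher among all features, and at an unadjusted p under 0.05 the numbers were 35 lower and 3 higher. After rescaling 16 fell and 5 rose, against 13.6% and 14.3%. The 16 included 4 of 6 inner coat genes, both outer coat genes, all 3 KDEL receptors and SEC61A1, and the 5 that rose were SRP14, SEC61G, SEC62, TRAM1 and SEC11A. KDELR3 counts among the 30 and the 16, and among the genes given below as lower at day 5 than at day 2. It was tested because of its day 2 libraries, so its fall from day 2 is only a description. From day 3 to day 5, 9 genes fell and 0 rose, against 13.1% and 0.67% of all features. These 9 were SRP54, SRPRB, SSR1, SSR3, TRAM1, TRAM2, SPCS1, SPCS2 and KDELR1, with changes from -0.67 to -0.51. At an unadjusted p under 0.05 1 gene rose in that step, SEC61G at 0.43 (SE 0.085, adjusted p = 0.00339). After rescaling 0 fell and 1 rose, SEC61G again, against 2.03% and 4.43% of all features, and 7 were lower at an unadjusted p under 0.05. The count of 9 was 4 without the second day 3 library, 15 without the third day 3 library and 20 without the third day 5 library. Between day 2 and day 5, 34 genes fell and 0 rose, against 69.8% and 4.35% of all features, with 1 higher at an unadjusted p under 0.05, and after rescaling 16 fell and 7 rose, against 18.1% and 19%.

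A ratio of 2 genes within a library does not depend on the scale of that library, apart from the 1 added to each TPM. For 15 pairs of paralogs or partners the 9 treated libraries were compared with the 3 untreated ones by an exact two-sided permutation test. It runs over 220 choices, its smallest p is 0.00909, and p was adjusted over the 15 pairs. The 3 days were pooled as 1 treated group, so a difference is a mean over days and its p belongs to no single day. Ratios differed by day, as SEC61B against SEC61A1 at 0.29, 1.32 and 1.64 on day 2, 3 and 5. The ratio passed in 6 pairs. The 15 pairs were chosen with earlier results of these data known, and the adjustment of p does not cover that choice. SEC61B gained on SEC61A1 by 1.08 on the log2 scale (exact p = 0.00909, adjusted p = 0.0341, higher in 9 of 9 libraries). SAR1B gained on SAR1A by 0.90 (exact p = 0.00909, adjusted p = 0.0341, 9 of 9 libraries). SEC11C gained on SEC11A by 0.55 with the same p in 9 of 9 libraries, most at day 2, where the mean ratio of TPM was 8.49 against 5.16 in untreated. SRP68 went by -0.44 against SRP72 in 9 of 9 libraries, with the same p. SRP9 went by -0.55 against SRP14 (exact p = 0.0182, adjusted p = 0.0455, lower in 8 of 9 libraries) and KDELR3 by 0.92 against KDELR2 (exact p = 0.0182, adjusted p = 0.0455, higher in 8 of 9 libraries). With 0.1 added to each TPM in place of 1, KDELR3 against KDELR2 was 0.36 (exact permutation, adjusted p = 0.318) and SRP9 against SRP14 was -0.56 (exact permutation, adjusted p = 0.0545), so neither passed. For KDELR3, at 0.0863 to 0.345 TPM at day 5, the 1 added sets much of the ratio. The plain ratio of KDELR3 to KDELR2 in TPM averaged 0.01705 in untreated, 0.0256 at day 2, 0.0186 at day 3 and 0.0119 at day 5, so in TPM it was lower at day 5 than in untreated.

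SEC61G against SEC61A1 had the largest difference of the 15, at 1.43 (exact p = 0.0273, adjusted p = 0.0584), and TRAM2 against TRAM1 was at -1.18 (exact p = 0.0455, adjusted p = 0.0852). Neither passed, and both passed without the second day 2 library (exact permutation, adjusted p = 0.0303). SEC62 against SEC63 was at 0.91 and SRPRA against SRPRB at -0.44, and they did not pass (exact permutation, adjusted p = 0.121 and 0.161). In these pairs the mean over the 3 days hides a larger difference after day 2, given without a test. On day 2, 3 and 5 SEC62 against SEC63 was at 0.02, 1.23 and 1.48, and SRPRA against SRPRB at 0.01, -0.71 and -0.62. TRAM2 against TRAM1 was at -0.11, -1.72 and -1.71, and SEC61G against SEC61A1 at 0.25, 1.62 and 2.42. The other 5 pairs, SEC23A with SEC23B, SEC24A with SEC24B, SEC24D with SEC24C, KDELR2 with KDELR1 and SEC13 with SEC31A, differed by -0.27 to 0.19 over the 3 days together. This mean hides opposite shifts in a pair of them, given without a test. SEC24D against SEC24C was at 0.48 on day 2, with all 3 libraries above the untreated ones, and at -0.17 and -0.23 on day 3 and day 5, with all 6 below. SEC23A against SEC23B was at -0.33, 0.39 and 0.51 on the 3 days. At day 5 alone, 3 libraries against 3 cannot give a p under 0.10. Leaving out an untreated library leaves 55 choices and a smallest p of 0.0364, at which 11 of the 15 pairs would be needed for any to pass, so the 0 pairs that passed then say nothing of stability. Without any 1 of 7 treated libraries (the third of day 2 and all of day 3 and day 5), KDELR3 against KDELR2 and SRP9 against SRP14 each had an adjusted p of 0.0606 (exact permutation).

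**Figure D3:**
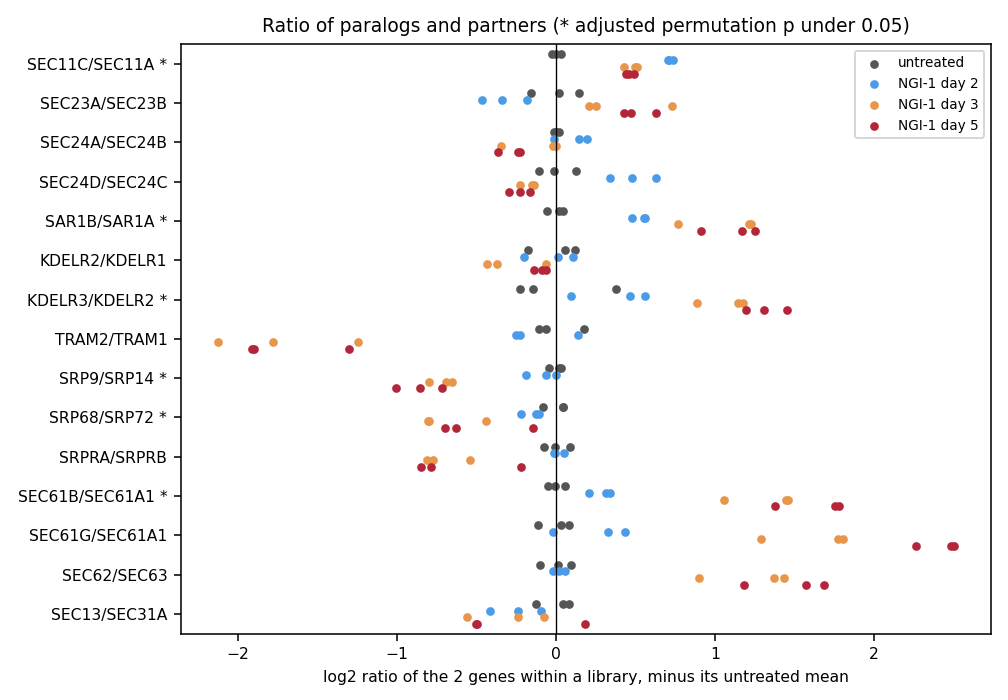
Log2 ratio of 2 genes within each library, minus the mean of that ratio in the untreated libraries (x axis), for 15 pairs (y axis). Each point is 1 library, coloured by group, and an asterisk marks the 6 pairs with an adjusted permutation p under 0.05, among them KDELR3/KDELR2, whose plain TPM ratio was lower at day 5 than in untreated. The test pooled the treated days, and the pairs were chosen with earlier results of these data known. In the rows of SEC61B/SEC61A1, SAR1B/SAR1A and SEC11C/SEC11A all 9 treated libraries lie to the right of the untreated ones.

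The share of all TPM held by the 41 genes (mean ± SD, n = 3 libraries) was 1.15% ± 0.0123 in untreated cells, 1.31% ± 0.0307 after 2 days, 0.977% ± 0.00794 after 3 days and 0.877% ± 0.0363 after 5 days. Of the TPM outside ribosomal protein and mitochondrially encoded genes they held 1.87% in untreated, 2.37% at day 2, 2.21% at day 3 and 2.35% at day 5. The share therefore went down or up with what it was measured against. Within the list, the share of TPM of the Sec61 channel was 0.233% in untreated and 0.306% at day 5, while that of the KDEL receptors was 0.0779% and 0.0186%. SEC11A moved from rank 22 of 41 by mean TPM in untreated to rank 11 at day 5, SEC62 from 24 to 14, SPCS1 from 9 to 15 and SSR1 from 10 to 19.

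Genes for short proteins had smaller falls on average. Across the 41 genes, Pearson's r between the coding length (of the principal transcript in GENCODE release 29) and the log2 change was -0.21 at day 2, -0.56 at day 3 and -0.55 at day 5, with Spearman's rho -0.60 at day 5. These are correlations across genes, which are not independent replicates and share the same libraries, so they carry no p. Over all 10488 tested features with a coding length, r was -0.06 at day 2, -0.22 at day 3 and -0.21 at day 5, and over 68 other genes of the pathway 0.15, -0.25 and -0.26. At day 5 the 14 members of up to 200 residues had a median change of -0.49, against -0.64 for all features of that length. The 13 members over 200 and up to 400 residues had a median of -1.28 (all features -1.01) and the 14 longer ones -1.73 (all features -1.19). The short genes included exceptions, as SPCS1 (102 residues, -1.58) and SAR1A (198 residues, -1.63), and SEC62 (399 residues, 0.34) lay above all others over 200 residues. The part of RNA quality or fragment length in this was not tested.

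**Figure D4:**
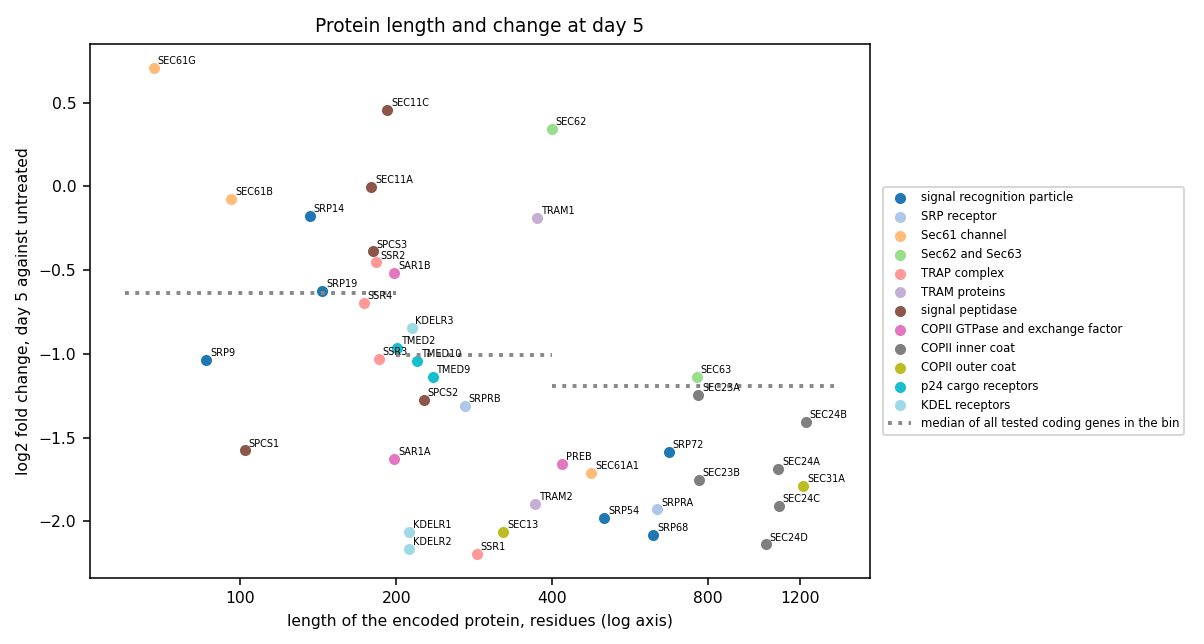
Length of the encoded protein in residues (x axis, log scale) against the log2 change from untreated to day 5 (y axis) for the 41 genes, coloured by role. Dotted lines are the medians of all tested coding genes in 3 length classes (-0.64, -1.01 and -1.19), and the longer members, as the SEC24 genes, lie mostly below them, while SEC61G (68 residues) lies highest at 0.71.

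A second list of 72 genes of neighbouring steps, written from general knowledge, gives the rest of the pathway, and 70 were tested. Calls lower numbered 7 on day 2, 46 on day 3 and 53 on day 5 (10%, 65.7% and 75.7%), and calls higher 4, 3 and 3. All features tested gave 23.2%, 61.5% and 69.8% lower and 8.04%, 7.59% and 7.73% higher. The counts of each group at day 5 below are to be read against 69.8% lower and 7.73% higher among all features. The median change of the 70 genes was -0.04, -0.79 and -1.12. All 8 COPI coat genes tested, which carry vesicles from the Golgi back to the ER, fell at day 5, from -1.90 (COPG1) to -0.65 (COPB1). Among 14 other cargo receptors and p24 proteins 10 fell and 1 rose at day 5, with ERGIC1 at -2.53 and ERGIC2 at 0.91. Of 12 ER-Golgi tethers and SNAREs 11 fell, with TRAPPC1 at -1.81 and BET1, not called, at 0.39. Of 6 organisers of ER exit sites 3 fell, with SEC16A at -1.27 and MIA2, not called, at -0.14. The ER membrane complex inserts membrane proteins, and 8 of its 10 genes fell and 1 rose, with EMC1 at -2.22 and EMC2 at 0.90. In the multipass translocon 8 of 11 fell, with NCLN at -2.56 and TMCO1, not called, at 0.23. For tail-anchored insertion 4 of 7 fell, with SGTA at -2.01 and CAMLG, not called, at -0.0050. Of the nascent chain partners NACA rose by 0.51 and BTF3 fell by 0.57. After rescaling 18 of the 70 were lower at day 5 and 22 higher (25.7% and 31.4%). The shares were 34.1% and 29.3% for the 41 genes and 26.9% and 27.5% for all features. On that scale the calls lower and higher were 4 and 1 of the COPI coat, 3 and 6 of the cargo receptors, 2 and 3 of the tethers, 0 and 2 of the exit site organisers, 3 and 2 of the ER membrane complex, 3 and 3 of the multipass translocon, 3 and 3 for tail-anchored insertion and 0 and 2 of the nascent chain partners.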

How the data were processed

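Total RNA of MM1S cells was sequenced in 12 libraries. The authors deposited 1 table of log2 values of TPM plus 1 for 59276 features, listed by gene symbol. The submitters' notes name FastQC, Trimmomatic, STAR and Salmon and the build hg38, with no versions, and how each was used is not given in the sources used here. The dose of 10 μM comes from the study's methods. TPM was recovered from the deposited log2 values and summed to the same total in each library but for rounding. TPM is not a count, so no count model was run, no counting interval is given, and precision is the spread between 3 libraries. Features reaching 1 TPM in 3 or more libraries (11939) were fitted with limma 3.58.1 in R 4.3.3, with 1 mean per group and a mean-variance trend over all 12 libraries, and p-values are two-sided with Benjamini-Hochberg adjustment within each contrast. On simulated data of 11939 features for day 5 against untreated, only 200 genes were changed, of which 190 were called, and 9 unchanged genes were called. In the deposited data 69.8% of features were called lower and 7.73% higher at day 5. Recovery was not tested with so many features changed, nor separately for log2 changes near 0.5. Ratios were tested with an exact permutation test (scipy 1.17.1). Coding lengths came from GENCODE release 29 and promoters from RefSeq on GRCh38.p14. The members, lists, pairs and tests were chosen with earlier results of these data known. All 41 genes are named, and values in every library are given for the largest rise and fall at day 5 in each role group, for pairs whose ratio passed and moved by over 0.5, and for genes with calls of opposite sign at a pair of days, of which there were none. In the second list the largest rise and fall of each group are named. Alternatives were rescaling, no filter, a TPM minimum of 5, 0.1 added in place of 1, pairwise fits, no trend, dropping the 20 most abundant features, other call thresholds and leaving out each library in turn.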

Additional observations from a re-analysis of the deposited data

Results flagged for a closer look

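Of the 41 genes, 12 lay above untreated at day 2 and below untreated at day 5, each by more than 0.1 on the log2 scale, and the change between day 2 and day 5 was itself called by limma. Of all 11939 features 12.3% met the same rule, against 29.3% of the 41 genes, and 0 of the 12 were called at day 2. The difference between the day 5 and the day 2 change was -1.43 for SEC63, -0.84 for SSR2, -1.21 for SSR3, -1.12 for SSR4, -1.43 for SPCS2 and -0.65 for SPCS3. It was -1.87 for SEC23B, -2.32 for SEC24D, -1.13 for TMED2, -1.47 for TMED9, -1.24 for TMED10 and -1.17 for KDELR3. KDELR3 reached 1 TPM in only 1 untreated and the 3 day 2 libraries, so it was tested because of the group in which it is high and its value is a description. Both changes use the same untreated libraries, so the difference rests on the day 2 and day 5 libraries alone. After rescaling it turned to 0.16 for SSR2 and 0.34 for SPCS3. In the same direction but smaller than a call on that scale were SEC63 (-0.46), SSR3 (-0.21), SSR4 (-0.13), SPCS2 (-0.44), TMED2 (-0.14), TMED9 (-0.49) and TMED10 (-0.25). On that scale SEC63, SSR2, SSR3, SSR4, SPCS3, TMED2, TMED9 and TMED10 lay above untreated at day 5, so they did not turn below it. SPCS2, SEC23B, SEC24D and KDELR3 still lay below untreated at day 5. RN7SL1, a gene of the 7SL RNA of the signal recognition particle and no protein subunit, stood out because its lowest treated library, at 117.8 TPM, lay above the highest untreated library, at 91.8 TPM. It was added after the values were seen.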

How the results depend on the processing

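TPM is a share, and rescaling turned 43 of 135 single-gene signs. With the libraries rescaled, the counts lower and higher were 0 and 7 at day 2, 11 and 12 at day 3, 14 and 12 at day 5, 16 and 5 from day 2 to day 3, 0 and 1 from day 3 to day 5 and 16 and 7 from day 2 to day 5. Rescaling turned the sign, giving these log2 changes at day 2 for SRP19 (0.23), SRP54 (0.053), SRP72 (0.066), SEC61A1 (0.22), SSR1 (0.11), SEC11A (0.21), SAR1B (0.22), PREB (0.091), SEC24A (0.069), SEC31A (0.092), KDELR1 (0.21), KDELR2 (0.18). It did so at day 3 for SRP9 (0.090), SRP14 (0.81), SRP19 (0.51), SRPRB (0.11), SEC61B (0.84), SEC63 (0.20), SSR2 (0.67), SSR3 (0.34), SSR4 (0.59), SPCS2 (0.19), SAR1B (0.71), TMED2 (0.37), TMED9 (0.14), TMED10 (0.11). It did so at day 5 for SRP9 (0.19), SRP14 (1.05), SRP19 (0.59), SEC61B (1.15), SEC63 (0.062), SSR2 (0.77), SSR3 (0.19), SSR4 (0.53), TRAM1 (1.04), SPCS3 (0.83), SEC11A (1.22), SAR1B (0.70), TMED2 (0.25), TMED9 (0.079), TMED10 (0.18), and for day 5 against day 2 for SSR2 (0.16), SPCS3 (0.34). Without the 20 most abundant features, day 2 had 0 lower and 2 higher, and there were 4 higher at day 3, 3 higher at day 5, 5 lower from day 3 to day 5 and 1 higher from day 2 to day 5. The sign then turned at day 2 for SRP19 (0.092), SEC61A1 (0.077), SEC11A (0.075), SAR1B (0.080), KDELR1 (0.074), KDELR2 (0.043), at day 3 for SRP14 (0.19), SEC61B (0.23), SSR2 (0.052), SAR1B (0.10), and at day 5 for SRP14 (0.15), SEC61B (0.25), TRAM1 (0.13), SEC11A (0.32). A size over 1 left day 2 with 0 lower and 0 higher, day 3 with 18 and 0, and 0 higher at day 5, 16 lower from day 2 to day 3 and 0 lower from day 3 to day 5. With the adjusted p alone, day 2 had 5 lower and 8 higher, and there were 4 higher at day 3, 3 higher at day 5, 3 higher from day 2 to day 3, 25 lower and 1 higher from day 3 to day 5 and 1 higher from day 2 to day 5. With 1 library left out at a time, the counts lay between 0 and 1 lower and 1 and 2 higher at day 2, between 1 and 2 higher at day 3, between 4 and 20 lower from day 3 to day 5 and between 0 and 1 higher from day 2 to day 5. The signs that turned then belonged to small changes. These ranges were -0.0502 to 0.0714 for SRP19, -0.0507 to 0.0063 for SEC61A1, -0.0104 to 0.0598 for TRAM2, -0.0691 to 0.0440 for SEC11A, -0.0623 to 0.0454 for SAR1B and -0.0872 to 0.0300 for KDELR1 at day 2, -0.0262 to 0.0653 for SPCS3 at day 3 and -0.0395 to 0.0242 for SEC11A at day 5. The number of ratios that passed was between 0 and 8 (between 4 and 8 where a treated library was left out, and 0 where an untreated one was, where the 55 choices left nearly fix that outcome), and the ratio of SEC24D to SEC24C between -0.0492 and 0.0886. That ratio was -0.0034 with 0.1 added to each TPM and -0.2305 at day 5 alone, and SEC24A to SEC24B was 0.0207 with 0.1 added. The share of TPM held by the 41 genes at day 5 was 2.35% outside ribosomal protein and mitochondrial genes. No filter, a TPM minimum of 5 (under which KDELR3 was not tested), 0.1 added to each TPM, the pairwise fit and the fit without a mean-variance trend changed no sign, and no call outside the step from day 3 to day 5. There TRAM2 lost its call with no filter, in the pairwise fit and without the trend (8 lower each), and KDELR2 and SRP72 gained one with 0.1 added (11 lower). No paired analysis was possible because the labels give no replicate numbers. TPM keeps no depth, so no limit by depth can be given.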

Other observations

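The 7SL RNA of the signal recognition particle was listed under a pair of genes. RN7SL1 measured 47.1, 53.8 and 91.8 TPM in the untreated libraries, 230.0, 133 and 280.3 after 2 days, 260.0, 404 and 118 after 3 days, then 188, 205 and 128 after 5 days. Its log2 change in limma was 1.72 at day 2 (SE 0.39, adjusted p = 0.00293), 1.89 at day 3 (SE 0.39, adjusted p = 0.000516) and 1.45 at day 5 (SE 0.39, adjusted p = 0.00321). RN7SL2 measured 110.2, 77.5 and 161 TPM in untreated, 429, 239.8 and 586 after 2 days, 335, 406 and 112 after 3 days, then 154, 227 and 172 after 5 days. Its change was 1.81 at day 2 (SE 0.42, adjusted p = 0.00360), 1.15 at day 3 (SE 0.42, adjusted p = 0.0227) and 0.70 at day 5 (SE 0.42, adjusted p = 0.134), not called, with overlap between untreated and treated libraries at day 3 and day 5. After rescaling the changes were 1.94, 2.75 and 2.67 for RN7SL1 and 2.04, 2.01 and 1.92 for RN7SL2, all called. The SEs of both genes were larger than those of all 6 protein subunits. The genes are nearly identical copies, so the split of reads between them is uncertain, and they were chosen after their values were seen. How well the libraries captured 7SL RNA was not tested, so these changes describe the listed TPM only.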
